A study of Homo sapiens with 6 samples.

Results

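The genes that build and run the DNA replication fork were examined in H1299 cells, which are human lung carcinoma cells without p53, after depletion of the histone demethylase RBP2, also called KDM5A. Members were the probe sets whose annotated gene symbol belongs to a list of 55 genes of replication origins and forks, with the brightest probe set over the 6 arrays standing for each gene. All 55 were on the array with a probe set of their own, out of 19775 genes in all, and 54 passed the filter on dim probe sets. The study put lentivirus carrying 1 of 3 short hairpin RNAs into the cells, and RNA was taken 72 hours later. The groups were RBP2 shRNA 1 (labelled KD1), RBP2 shRNA 2 (KD2) and scramble shRNA, each with 2 arrays. All cells were of the same line, all were infected, and all grew in RPMI with 10% fetal calf serum, with 250 ng of total RNA labelled per array. The labels describe no clone selection and no uninfected cells, and they leave unsaid whether the replicates were grown apart, so the spread behind each p-value is that between these samples and may be technical. The scramble arrays are shared by the comparisons of both shRNAs.

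DNA replication starts at origins stepwise. In G1 phase the origin recognition complex, CDC6 and CDT1 load the ring-shaped MCM helicase onto DNA, which licenses the origin. At the start of S phase the kinases CDC7-DBF4 and CDK, with MCM10, CDC45 and the GINS complex, turn the loaded ring into a moving helicase. Polymerase alpha with primase then lays primers, the RFC clamp loader places the sliding clamp PCNA, polymerases delta and epsilon copy the strands, RPA covers single-stranded DNA, and FEN1 and LIG1 join the lagging strand. Many of these genes are transcribed in waves of the cell cycle through E2F factors, which the retinoblastoma protein restrains. RBP2 is a partner of that protein.

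The targeted gene was low in every knockdown array. KDM5A read 7.42 and 7.27 in shRNA 1 cells and 6.66 and 6.72 in shRNA 2 cells, against 9.35 and 9.42 in scramble cells, on the log2 scale of the deposited values. It fell by 2.04 ± 0.11 with shRNA 1 (log2, SE of limma's moderated spread; limma adjusted p = 0.0048) and by 2.69 ± 0.11 with shRNA 2 (adjusted p = 0.0024). The shRNA 1 call was lost without scramble replicate 1 (adjusted p = 0.06) or scramble replicate 2 (0.064), with log2 fold changes of -2.08 and -2.00. The median over the 10526 tested genes lay between 8.49 and 8.56 on all 6 arrays. Of markers of the line, VIM read 14.89 to 15.04 and KRT18 12.76 to 13.21. The epithelial markers EPCAM, CDH1 and KRT19 and the lung markers NKX2-1 and SFTPC read 2.24 to 2.82, and the lung marker SFTPB 4.96 to 5.17. Other keratins of the same list changed: KRT8 rose by 0.74 with shRNA 1 (adjusted p = 0.035) and KRT7 by 1.45 with shRNA 2 (adjusted p = 0.044). The leukocyte, endothelial, liver and red cell markers PTPRC, CD3E, CD14, PECAM1, VWF, CDH5, ALB and HBB read 2.24 to 2.33. Of the fibroblast markers, COL1A1 read 6.20 to 7.02, COL3A1 2.24 and DCN 2.24 to 2.25.

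Most replication genes were lower with shRNA 2, and few passed the test with shRNA 1. Of the 54 tested members, 28 fell with shRNA 2 and 0 rose (limma, adjusted p under 0.05 over all tested genes), where 14.4% of all tested genes fell and 16.7% rose. At an unadjusted p under 0.05 the counts were 39 lower and 0 higher. The filter on dim probe sets took a mean of at least 4 over all 6 arrays. DTL, CDC6, MCM10, CDC45, WDHD1, ORC1 and CLSPN had shRNA 2 means of 2.38 to 3.84, so they passed it through the other groups. All but ORC1 and CLSPN were among the 28 falls, and the sizes of these fold changes rest on dim shRNA 2 values. The median log2 fold change of the members was -1.62, against 0.08 for all tested genes. On each array the median member level was 9.72 and 8.90 with shRNA 1 and 7.72 and 7.50 with shRNA 2, against 9.82 and 8.94 with scramble. Both shRNA 2 arrays lay below both scramble arrays for 49 of the 55 members and above both for 3, ORC4, POLD2 and POLD4. The ranges overlapped for ORC3, GINS3 and RPA2. The share of all tested genes whose arrays separate in this way was not counted, so these counts only describe the members. The values are levels in bulk RNA, in which fewer cells in S phase and less of the RNA per cell cannot be told apart.

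With shRNA 1, 2 members fell, MCM6 and POLD2, and 0 rose, where 7.9% of all tested genes fell and 3.62% rose. At an unadjusted p under 0.05, 3 were lower, CHAF1B being added, and 1 was higher, RPA1. The median log2 fold change was -0.10, against 0.00 for all tested genes. That median took either sign when 1 array was left out: it was -0.61 without shRNA 1 replicate 1, 0.31 without shRNA 1 replicate 2, 0.26 without scramble replicate 1 and -0.47 without scramble replicate 2. Both shRNA 1 arrays lay below both scramble arrays for 7 members and above both for 2, DBF4 and RPA1, with no such count made over all tested genes. Leaving out any 1 of the 6 arrays ended both calls, as did testing without the filter on dim probe sets or in a model of the 2 groups alone.

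The difference between the shRNAs was tested in the same model. Of the 54 members, 30 were higher with shRNA 1 than with shRNA 2 and 2 were lower, ORC4 and POLD2, where 17.8% of all tested genes were higher and 23.3% lower. The median difference was 1.68, against -0.06 for all tested genes. Of the 28 members that fell with shRNA 2, 26 also differed between the shRNAs, and the exceptions were POLA1 and POLE4. Both comparisons use the same shRNA 2 arrays, so this overlap is not independent of the falls. The matching share over all genes that fell with shRNA 2 was not counted. No member was called lower with both shRNAs (0 of 54), and 1, CHAF1B, was lower with both at an unadjusted p under 0.05. Neither count was made over all tested genes. Both shRNA 1 arrays lay above both shRNA 2 arrays for 45 of the 55 members and below both for 5, again with no such count over all tested genes.

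**Figure D1:**
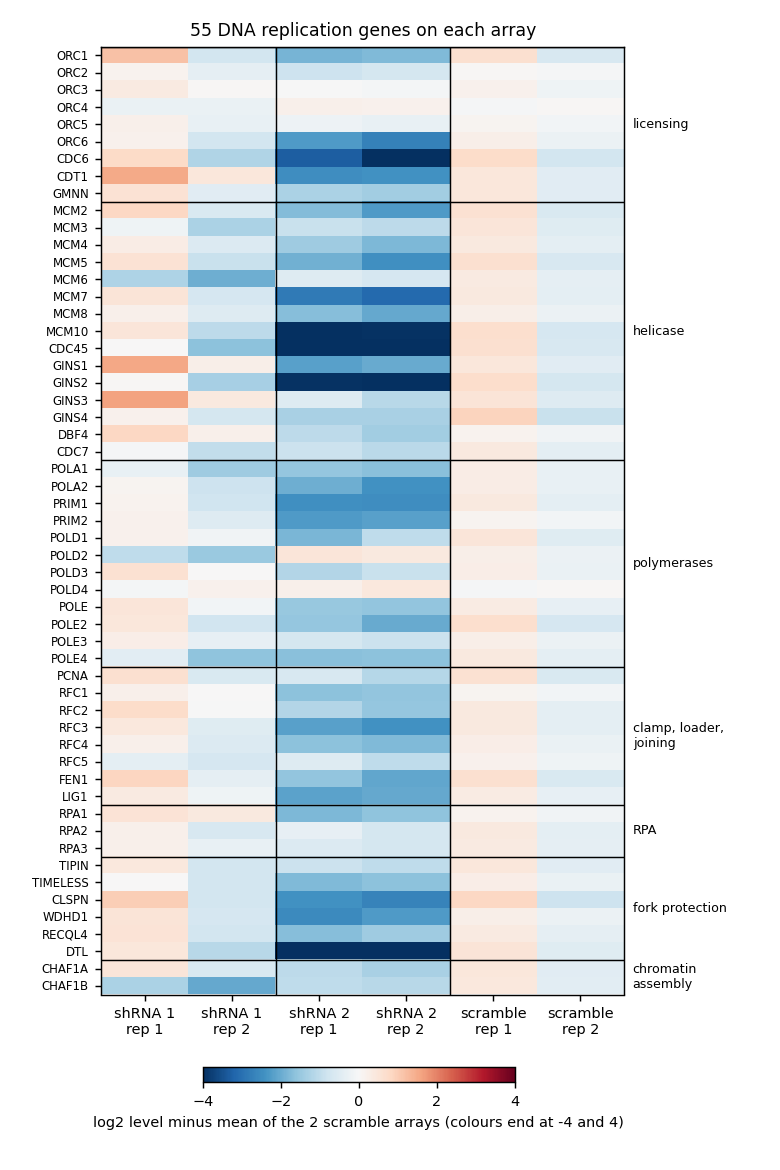
Levels of the 55 members on each array as log2 differences from the mean of the 2 scramble arrays (colour scale, ending at -4 and 4), with arrays across and genes down, grouped by role. The columns of shRNA 2 are blue for nearly all genes, while those of shRNA 1 are red in replicate 1 and light blue in replicate 2 for most genes, as those of scramble are, with MCM6, POLD2 and CHAF1B bluer.

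The arrays also differed by replicate number within their groups. Replicate 1 was higher than replicate 2 for 53 of the 54 tested members with shRNA 1, by a median of 0.92 on the log2 scale, for 36 with shRNA 2 (0.13), and for 52 with scramble (0.76). Over all tested genes the medians of the same differences were 0.00, -0.02 and 0.00. The contrast between the conditions was also computed within each number. Between shRNA 2 and scramble the median member difference was -1.92 in replicate 1 and -1.30 in replicate 2, and 50 of 54 members were lower in both numbers, against 36.0% of all tested genes. Between shRNA 1 and scramble the medians were -0.02 and -0.25, with 24 members (44.4%) lower and 15 (27.8%) higher in both numbers, against 39.6% and 40.9% of all tested genes.

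With the replicate number as a block, 49 members fell and 1, POLD4, rose with shRNA 2, against 22.2% and 28.4% of all tested genes. The labels state no pairing, and this block was chosen after the deviations of these same arrays were seen. With shRNA 1 the blocked counts were 4 lower, RFC5 and CHAF1B joining MCM6 and POLD2, and 2 higher, GINS3 and DBF4, against 16.8% and 12.8%. Between the shRNAs they were 40 higher and 3 lower, against 25.1% and 32.6%. In the blocked model 3 members, MCM6, RFC5 and CHAF1B, were lower with both shRNAs, and the same count over all tested genes was not made. The 28 falls with shRNA 2 became 4 of 55 without the filter on dim probe sets, 14 of 37 without probe sets marked for cross-hybridisation, 2 without shRNA 2 replicate 1, 4 without shRNA 2 replicate 2, 5 without scramble replicate 1 and 17 without scramble replicate 2. The median of the members stayed between -1.90 and -1.21 in those and the other settings tried. Probe sets were taken as marked for cross-hybridisation wherever their names end in _s_at or _x_at. Such a name does not by itself show cross-hybridisation in these data.

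**Figure D2:**
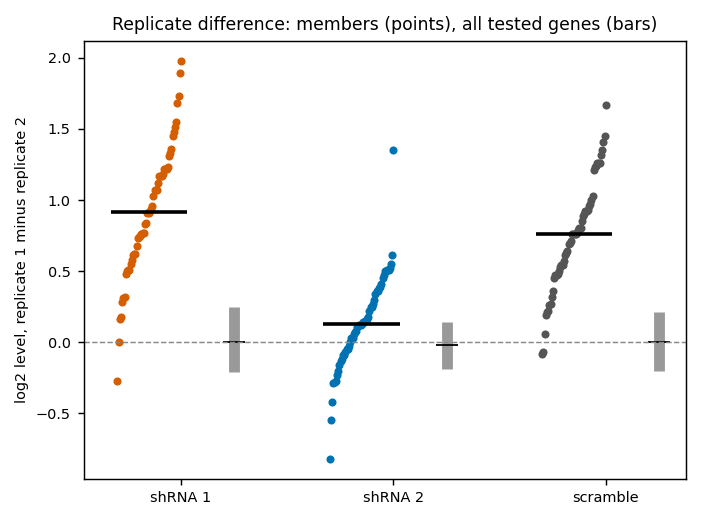
Difference between replicate 1 and replicate 2 within each group for the 54 tested members (points, log2 scale; long lines, medians) and for all tested genes (bars, 25th to 75th percentile; short lines, medians). The medians of the members are 0.92 with shRNA 1, 0.13 with shRNA 2 and 0.76 with scramble, while those of all tested genes lie within 0.02 of 0.

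E2F letters were common in the members' promoters. RefSeq windows of 300 bases, from 250 before to 50 after the start of a gene (build GRCh38.p14), were at hand for 48 members. MCM4, MCM5, GINS4, POLD3, RPA2, RPA3 and RECQL4 were not matched. Each window was searched on both strands for 4 spellings of the E2F motif, TTTCCCGC, TTTCGCGC, TTTGCCGC and TTTGGCGC, and overlapping matches counted as 1. At least 1 match stood in 21 of 48 member windows (43.8%), against 3.33% of the windows of all 27305 genes in the table and 5.7% of those of tested genes. CCAAT, the letters read by NF-Y, stood in 58.3% of the member windows, against 35.7% of all. TTTGAA, a core of the cell cycle element named CHR, stood in 1 member window, that of DBF4 (2.08%, against 15.4% of all). A few windows are printed, those of a member with a large fall and a match near the start (DTL, chr1:212035498-212035797, strand +), of the licensing factor with the largest fall (CDC6, chr17:40287629-40287928, strand +), of both members that fell with shRNA 1 (MCM6, chr2:135876394-135876693, strand -, and POLD2, chr7:44123499-44123798, strand -), and of a member that fell with shRNA 2 without a match (CDC45, chr22:19479670-19479969, strand +). They run 5′ to 3′ along the gene's strand, with E2F matches in capitals.
DTL: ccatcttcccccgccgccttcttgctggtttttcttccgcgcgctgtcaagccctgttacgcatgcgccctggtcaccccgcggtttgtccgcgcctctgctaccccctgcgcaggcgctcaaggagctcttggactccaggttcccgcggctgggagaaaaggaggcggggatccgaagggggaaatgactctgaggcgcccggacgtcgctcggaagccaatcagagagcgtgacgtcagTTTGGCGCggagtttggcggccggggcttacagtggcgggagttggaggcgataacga
CDC6: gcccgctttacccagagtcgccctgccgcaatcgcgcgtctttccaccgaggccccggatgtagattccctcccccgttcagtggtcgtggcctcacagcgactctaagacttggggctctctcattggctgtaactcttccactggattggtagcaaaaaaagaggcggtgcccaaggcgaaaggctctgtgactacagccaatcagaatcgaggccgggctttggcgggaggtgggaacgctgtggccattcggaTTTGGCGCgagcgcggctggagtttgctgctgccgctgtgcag
MCM6: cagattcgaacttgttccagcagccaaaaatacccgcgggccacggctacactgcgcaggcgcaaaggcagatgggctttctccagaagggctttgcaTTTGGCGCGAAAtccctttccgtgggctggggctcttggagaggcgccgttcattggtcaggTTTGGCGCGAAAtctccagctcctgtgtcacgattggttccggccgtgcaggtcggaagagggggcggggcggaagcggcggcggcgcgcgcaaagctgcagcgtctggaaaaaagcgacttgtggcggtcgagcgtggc
CDC45: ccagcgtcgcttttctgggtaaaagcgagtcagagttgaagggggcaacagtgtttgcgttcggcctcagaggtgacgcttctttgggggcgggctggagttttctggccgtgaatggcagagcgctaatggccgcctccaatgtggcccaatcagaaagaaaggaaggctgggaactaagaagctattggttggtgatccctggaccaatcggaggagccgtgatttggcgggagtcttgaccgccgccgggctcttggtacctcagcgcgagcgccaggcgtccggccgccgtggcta
POLD2: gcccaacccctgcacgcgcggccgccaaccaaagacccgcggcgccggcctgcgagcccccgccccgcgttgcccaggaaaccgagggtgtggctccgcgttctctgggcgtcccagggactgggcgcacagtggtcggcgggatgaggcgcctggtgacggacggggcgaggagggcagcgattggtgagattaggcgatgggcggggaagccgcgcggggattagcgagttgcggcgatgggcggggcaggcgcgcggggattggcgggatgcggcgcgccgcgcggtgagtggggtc
The match of DTL begins at -8 and that of CDC6 at base 8 of the transcript. MCM6 holds 2 blocks, each a match on the gene's strand overlapped by a match on the opposite strand, and their first bases lie at -152 and -90 relative to the start. CDC45 holds 4 CCAAT matches and POLD2 holds 2, and neither holds any of the 4 E2F spellings searched.

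A match is a description of letters and not a bound site. Of the 21 members with a match, 13 fell with shRNA 2 and their median log2 fold change was -1.99, and of the 27 without, 13 fell and the median was -1.37. The values of the 2 sets overlapped, from -6.24 to -0.06 with a match and from -4.51 to 0.44 without. With shRNA 1 the medians were -0.08 and -0.11. These counts and medians describe the members, and the difference between the sets was not tested.

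**Figure D3:**
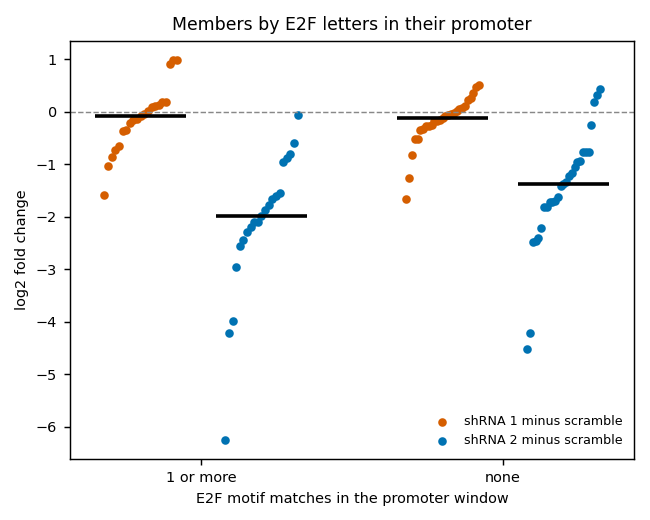
Log2 fold changes of the 48 members with a promoter window, split by whether the window holds an E2F match (left, 21 members) or none (right, 27 members), for shRNA 1 minus scramble (orange) and shRNA 2 minus scramble (blue); black lines are medians. The shRNA 2 medians are -1.99 with a match and -1.37 without, and the points of both sets overlap.

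Origin licensing genes fell in part with shRNA 2. Of 9 members, 4 fell with shRNA 2 (6 with the block) and the median log2 fold change was -1.33, and with shRNA 1 none passed the test and the median was -0.05. The counts in this and each later role stand against 14.4% of all tested genes lower with shRNA 2 (22.2% with the block). CDC6, the ATPase that brings the helicase to the origin, read 8.30 and 6.32 in shRNA 1 cells and 4.22 and 2.86 in shRNA 2 cells, against 8.25 and 6.81 in scramble cells. Both shRNA 2 arrays were far below the other 4 arrays, while those of shRNA 1 and scramble interleaved. CDC6 fell by 3.99 ± 0.88, or 15.9-fold (limma adjusted p = 0.027) with shRNA 2, and a dimmer probe set had a log2 difference of -4.80. CDT1, its partner in loading, read 10.83 and 9.76 in shRNA 1 cells and 6.83 and 6.88 in shRNA 2 cells, against 9.76 and 8.85 in scramble cells. It fell by 2.45 ± 0.45, or 5.46-fold (limma adjusted p = 0.016) with shRNA 2, and had 0.99 with shRNA 1 (adjusted p = 0.22), a difference between the shRNAs of 3.44 (adjusted p = 0.0048). The dimmer probe set of CDT1 had log2 differences of -2.83 with shRNA 2, 0.06 with shRNA 1 and 2.89 between the shRNAs. The CDT1 inhibitor geminin, GMNN, had -1.33 with shRNA 2, which did not pass (adjusted p = 0.079, or 0.012 with the block).

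Of the 6 subunits of the origin recognition complex, ORC2 and ORC6 fell with shRNA 2. ORC6, the smallest subunit, read 10.43 and 9.53 in shRNA 1 cells and 7.97 and 7.56 in shRNA 2 cells, against 10.49 and 10.01 in scramble cells, with the shRNA 2 arrays below all others. It fell by 2.48 ± 0.36, or 5.58-fold (limma adjusted p = 0.0098) with shRNA 2. ORC2 read 8.63 and 8.12 in shRNA 1 cells and 7.67 and 7.79 in shRNA 2 cells, against 8.52 and 8.45 in scramble cells, and fell by 0.76 ± 0.19, or 1.69-fold (limma adjusted p = 0.038). ORC1, the subunit whose level is known to swing with the cell cycle, had -1.81 ± 0.72 with shRNA 2 (adjusted p = 0.12, or 0.034 with the block). With shRNA 2 the log2 fold changes of the core subunits were -0.06 for ORC3, 0.19 for ORC4 and -0.25 for ORC5, none of which passed. ORC3 read 10.60 and 10.29 in shRNA 1 cells and 10.23 and 10.17 in shRNA 2 cells, against 10.43 and 10.08 in scramble cells. Each shRNA group overlapped scramble, while both shRNA 1 arrays lay above both shRNA 2 arrays. The 95% interval of the shRNA 2 fold change of ORC3 was -0.51 to 0.40.

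**Figure D4:**
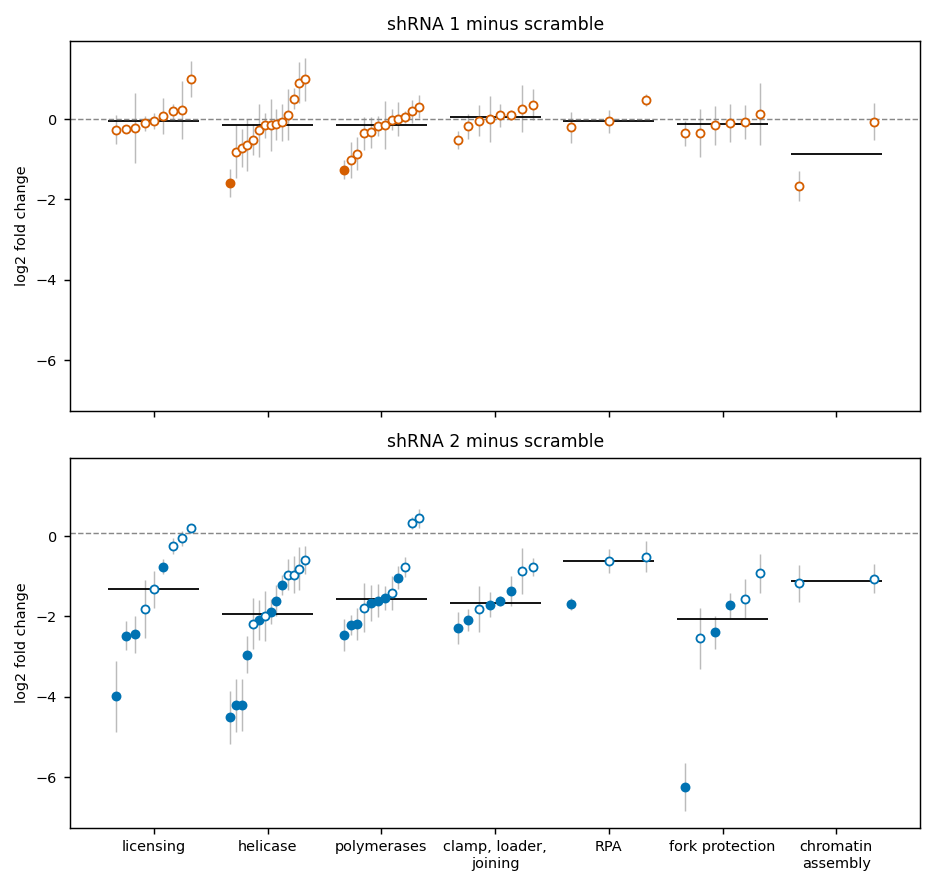
Log2 fold changes of the 54 tested members by role, for shRNA 1 minus scramble (top) and shRNA 2 minus scramble (bottom). Filled points passed a limma adjusted p under 0.05, open points did not; grey bars are SE, black lines are subgroup medians and the dashed line is the median of all tested genes. In the lower panel 28 points are filled, all below 0, and in the upper panel 2 are.

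Falls of over 4 on the log2 scale with shRNA 2 were found for CDC45, GINS2 and MCM10, all needed to start the loaded helicase. Of 14 tested members, 8 fell with shRNA 2 (14 with the block) and the median was -1.93, and with shRNA 1 only MCM6 passed and the median was -0.15. CDC45, the helicase's activating partner, read 7.59 and 5.91 in shRNA 1 cells and 3.05 and 3.05 in shRNA 2 cells, against 8.19 and 6.93 in scramble cells. Its shRNA 2 values stood at its floor on both arrays, so its fall of at least 4.51 (limma adjusted p = 0.01) is a lower bound. GINS2, a subunit of the GINS complex that joins CDC45 to the ring, read 9.67 and 8.31 in shRNA 1 cells and 5.68 and 5.17 in shRNA 2 cells, against 10.34 and 8.93 in scramble cells, and fell by 4.21 ± 0.64, or 18.5-fold (limma adjusted p = 0.011). MCM10, which is needed to set the helicase moving, read 8.04 and 6.53 in shRNA 1 cells and 3.08 and 3.63 in shRNA 2 cells, against 8.23 and 6.91 in scramble cells. It fell by 4.21 ± 0.66, or 18.5-fold (limma adjusted p = 0.012), and its other probe sets had -5.32 and -4.36. For these 3 genes the shRNA 2 arrays lay below every other array, and shRNA 1 and scramble overlapped.

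The helicase ring itself has 6 subunits, MCM2 to MCM7, of which MCM4 and MCM7 fell with shRNA 2. MCM7 read 12.21 and 11.04 in shRNA 1 cells and 8.89 and 8.59 in shRNA 2 cells, against 12.09 and 11.32 in scramble cells. It fell by 2.96 ± 0.46, or 7.79-fold (limma adjusted p = 0.011), and its other probe set had -3.10. MCM4 fell by 1.61 ± 0.39, or 3.05-fold (limma adjusted p = 0.035), and 3 of its other probe sets had -1.99 to -1.82, while the dimmest read 2.24 on every array. MCM2, MCM3 and MCM5 had -1.99, -0.96 and -2.18, with adjusted p of 0.067, 0.18 and 0.057 and blocked p of 0.0042, 0.032 and 0.0034.

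MCM6 was the subunit that fell with shRNA 1. It read 10.32 and 9.59 in shRNA 1 cells and 11.03 and 10.87 in shRNA 2 cells, against 11.90 and 11.19 in scramble cells. The shRNA 1 arrays were the lowest of the 6, those of shRNA 2 lay between, and both lay below scramble. MCM6 fell by 1.59 ± 0.34, or 3.02-fold (limma adjusted p = 0.047) with shRNA 1, and had -0.60 ± 0.34 with shRNA 2 (adjusted p = 0.23, blocked 0.043), with a 95% interval of -1.46 to 0.26. Its order is not the same by the dimmer of its probe sets, which read 4.59 and 3.93 with shRNA 1 and 4.07 and 3.79 with shRNA 2, against 5.67 and 5.17 with scramble. There both shRNAs were lower than scramble, with log2 differences of -1.16 for shRNA 1 and -1.49 for shRNA 2.

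Of the other members of this group, MCM8, a relative of the ring subunits, fell by 1.88 (limma adjusted p = 0.013) and GINS1 fell by 2.09 (adjusted p = 0.036) with shRNA 2. DBF4, the activator of the kinase CDC7, read 12.39 and 11.77 in shRNA 1 cells and 10.53 and 10.17 in shRNA 2 cells, against 11.70 and 11.43 in scramble cells. Its shRNA 1 arrays lay above and its shRNA 2 arrays below those of scramble. It fell by 1.22 with shRNA 2 (adjusted p = 0.024) and had 0.51 with shRNA 1, which passed only with the block (adjusted p = 0.27, blocked 0.038). CDC7 had -0.51 with shRNA 1 and -0.96 with shRNA 2, and GINS3 0.99 and -0.81, none of which passed without the block. With it the shRNA 2 values of CDC7 and GINS3 passed (adjusted p = 0.015 and 0.016), and so did that of GINS3 with shRNA 1 (0.019). GINS4 was too dim to be tested. It read 4.07 and 3.22 with shRNA 1 and 2.62 and 2.62, its floor, with shRNA 2, against 4.79 and 3.03 with scramble.

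**Figure D5:**
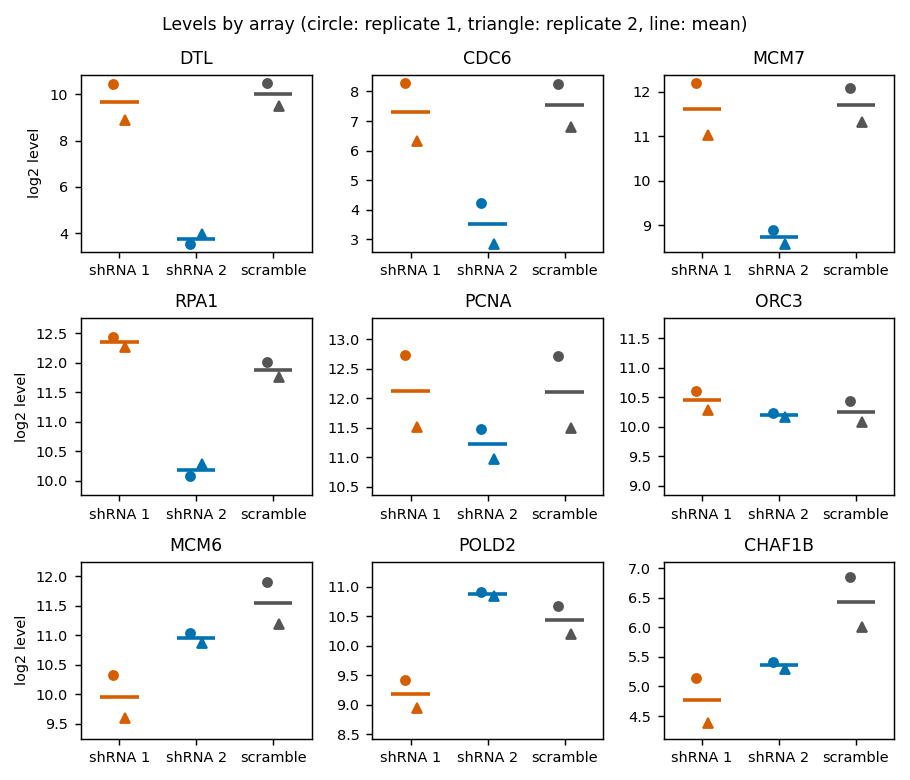
Log2 levels of 9 members on each array (circles, replicate 1; triangles, replicate 2; lines, group means) with shRNA 1, shRNA 2 and scramble, each panel on an axis of its own that does not start at 0. DTL, CDC6, MCM7 and RPA1 are lowest with shRNA 2, and MCM6, POLD2 and CHAF1B are lowest with shRNA 1. For ORC3 each shRNA group overlaps scramble.

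Among polymerases and primase, 7 of 12 members fell with shRNA 2 and none rose (10 and 1 with the block), with a median of -1.58. Both primase subunits and both subunits of the polymerase they work with were among the falls. PRIM1, the catalytic primase, read 10.31 and 9.37 in shRNA 1 cells and 7.71 and 7.68 in shRNA 2 cells, against 10.54 and 9.78 in scramble cells, and fell by 2.46 ± 0.39, or 5.52-fold (limma adjusted p = 0.012). PRIM2, its large partner, read 7.85 and 7.16 in shRNA 1 cells and 5.43 and 5.52 in shRNA 2 cells, against 7.79 and 7.58 in scramble cells, and fell by 2.21 ± 0.25, or 4.62-fold (limma adjusted p = 0.0054). Another 4 probe sets annotated to PRIM2 also carry the pseudogene PRIM2BP and were not used. POLA2, the accessory subunit of polymerase alpha, read 8.13 and 7.18 in shRNA 1 cells and 6.05 and 5.58 in shRNA 2 cells, against 8.32 and 7.71 in scramble cells, and fell by 2.20 ± 0.40, or 4.59-fold (limma adjusted p = 0.016). For all 3 both shRNA 2 arrays lay below both arrays of each other group. The catalytic subunit POLA1 fell by 1.61 (adjusted p = 0.038), and had -0.86 with shRNA 1 (adjusted p = 0.24).

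POLE, the catalytic subunit of the leading strand polymerase epsilon, read 8.39 and 7.78 in shRNA 1 cells and 6.40 and 6.33 in shRNA 2 cells, against 8.22 and 7.59 in scramble cells, and fell by 1.54 ± 0.29, or 2.91-fold (limma adjusted p = 0.018) with shRNA 2. Its small subunit POLE4 fell by 1.67 (adjusted p = 0.046), and had -1.03 with shRNA 1 (adjusted p = 0.21). POLE2 and POLE3 had -1.78 and -0.77, which passed only with the block (adjusted p = 0.078 and 0.08, blocked 0.0055 and 0.011).

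Polymerase delta, the lagging strand enzyme, has 4 subunits, and the test picked out POLD3 with shRNA 2 and POLD2 with shRNA 1. POLD3 fell by 1.04 with shRNA 2 (limma adjusted p = 0.047) and the catalytic POLD1 had -1.41 (adjusted p = 0.058, blocked 0.048). POLD2, the subunit that ties the others together, read 9.42 and 8.94 in shRNA 1 cells and 10.91 and 10.84 in shRNA 2 cells, against 10.67 and 10.20 in scramble cells. Its shRNA 1 arrays were the lowest and its shRNA 2 arrays the highest of the 6. It fell by 1.26 ± 0.23, or 2.39-fold (limma adjusted p = 0.036) with shRNA 1, and had 0.44 with shRNA 2 (adjusted p = 0.21), with a difference between the shRNAs of -1.70 (adjusted p = 0.0054). POLD4, the smallest subunit, read 8.65 and 8.92 in shRNA 1 cells and 8.94 and 9.17 in shRNA 2 cells, against 8.70 and 8.78 in scramble cells. Its value of 0.32 with shRNA 2 did not pass (adjusted p = 0.17), with a 95% interval of -0.07 to 0.70, and passed with the block (0.047).

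Of the clamp, its loader and the joining enzymes, 5 of 8 fell with shRNA 2 (8 with the block), with a median of -1.66, and with shRNA 1 none passed and the median was 0.05. RFC1, the large loader subunit, read 10.14 and 9.96 in shRNA 1 cells and 8.30 and 8.36 in shRNA 2 cells, against 10.04 and 9.85 in scramble cells. The spread within its groups was small, and it fell by 1.62 ± 0.13, or 3.07-fold (limma adjusted p = 0.0033). RFC3 read 10.32 and 9.41 in shRNA 1 cells and 7.74 and 7.49 in shRNA 2 cells, against 10.29 and 9.52 in scramble cells, and fell by 2.29 ± 0.39, or 4.89-fold (limma adjusted p = 0.014). RFC4 read 11.07 and 10.33 in shRNA 1 cells and 9.24 and 9.11 in shRNA 2 cells, against 11.15 and 10.61 in scramble cells, and fell by 1.71 ± 0.31, or 3.26-fold (limma adjusted p = 0.016), and RFC2 fell by 1.37 (adjusted p = 0.049). In RFC1, RFC3 and RFC4 both shRNA 2 arrays lay below all others. RFC5 read 10.33 and 10.05 in shRNA 1 cells and 10.19 and 9.69 in shRNA 2 cells, against 10.87 and 10.55 in scramble cells by its brightest probe set, whose -0.77 with shRNA 2 did not pass (adjusted p = 0.058, blocked 0.0049). Its 2 other probe sets had larger differences with shRNA 2, -1.73 and -2.27. With shRNA 1 they had smaller ones, -0.10 and -0.24, against -0.52 by the brightest, so its blocked shRNA 1 call rests on that probe set.

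LIG1, the ligase of the lagging strand, read 7.12 and 6.58 in shRNA 1 cells and 4.63 and 4.70 in shRNA 2 cells, against 7.08 and 6.44 in scramble cells, and fell by 2.09 ± 0.28, or 4.27-fold (limma adjusted p = 0.0083). The sliding clamp PCNA read 12.74 and 11.51 in shRNA 1 cells and 11.48 and 10.98 in shRNA 2 cells, against 12.72 and 11.50 in scramble cells. Its groups of shRNA 1 and scramble were nearly equal, and its -0.88 ± 0.57 with shRNA 2 did not pass (adjusted p = 0.3, blocked 0.026), with a 95% interval of -2.34 to 0.58. FEN1, the flap nuclease, had -1.82 ± 0.58 (adjusted p = 0.069, blocked 0.0039), and differed between the shRNAs by 2.08 (adjusted p = 0.04).

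Of the 3 subunits of RPA, the binder of single-stranded DNA, 1 fell with shRNA 2 (3 with the block). RPA1, which holds most of the DNA contacts, read 12.43 and 12.27 in shRNA 1 cells and 10.08 and 10.28 in shRNA 2 cells, against 12.01 and 11.75 in scramble cells. Its shRNA 1 arrays were the highest and its shRNA 2 arrays the lowest. It fell by 1.70 ± 0.15, or 3.24-fold (limma adjusted p = 0.0039) with shRNA 2, had 0.47 with shRNA 1 (adjusted p = 0.11), and differed between the shRNAs by 2.17 (adjusted p = 0.0013). Its other probe set gave -1.76 with shRNA 2 and 0.52 with shRNA 1. RPA2 read 9.96 and 9.12 in shRNA 1 cells and 9.43 and 9.05 in shRNA 2 cells, against 10.13 and 9.37 in scramble cells, and RPA3 read 12.19 and 11.69 in shRNA 1 cells and 11.45 and 11.31 in shRNA 2 cells, against 12.35 and 11.65 in scramble cells. RPA2 overlapped between shRNA 2 and scramble, and the shRNA 2 fold changes of -0.51 for RPA2 and -0.62 for RPA3 did not pass without the block (blocked adjusted p = 0.037 and 0.028), with 95% intervals of -1.5 to 0.48 and -1.36 to 0.12.

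Fork protection and fork-coupled factors had a median of -2.06 with shRNA 2, with 3 of 6 members lower (6 with the block). DTL, WDHD1 and CLSPN in this group passed the filter through the other groups. The median therefore rests partly on dim shRNA 2 values, and the groups were not ranked by it. The differences between groups of members were not tested. DTL, the receptor of the ubiquitin ligase that destroys CDT1 at the clamp, read 10.44 and 8.89 in shRNA 1 cells and 3.55 and 3.97 in shRNA 2 cells, against 10.50 and 9.50 in scramble cells. It fell by 6.24 ± 0.60, or 75.5-fold (limma adjusted p = 0.0043), and differed between the shRNAs by 5.90 (adjusted p = 0.0026). Its shRNA 2 values lay below the filter's mean of 4, which it passed through the other groups. Its dimmer probe set had -4.38, and the falls of DTL and of CDC45, which reached its floor, cannot be ranked. WDHD1, which couples polymerase alpha to the helicase, read 6.75 and 5.58 in shRNA 1 cells and 3.70 and 3.98 in shRNA 2 cells, against 6.47 and 6.01 in scramble cells, and fell by 2.40 ± 0.42, or 5.28-fold (limma adjusted p = 0.014). For both genes the shRNA 2 arrays lay below all others and shRNA 1 overlapped scramble.

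TIMELESS and TIPIN form a pair that steadies the fork. TIMELESS read 10.13 and 9.36 in shRNA 1 cells and 8.32 and 8.45 in shRNA 2 cells, against 10.37 and 9.83 in scramble cells, and fell by 1.72 ± 0.31, or 3.29-fold (limma adjusted p = 0.016) with shRNA 2. TIPIN read 9.77 and 8.60 in shRNA 1 cells and 8.50 and 8.32 in shRNA 2 cells, against 9.81 and 8.88 in scramble cells, and its -0.93 did not pass (adjusted p = 0.2, blocked 0.037). CLSPN, their partner in checkpoint signalling, read 5.91 and 4.18 in shRNA 1 cells and 2.51 and 2.24 in shRNA 2 cells, against 5.76 and 4.09 in scramble cells. It reached the floor on shRNA 2 replicate 2, so its -2.55 is a lower bound of the size, and it did not pass (adjusted p = 0.06, blocked 0.0077). The helicase RECQL4 had -1.56 (adjusted p = 0.063, blocked 0.026).

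The chromatin assembly pair CHAF1A and CHAF1B, which places histones behind the fork, had no call without the block. CHAF1A read 8.83 and 7.76 in shRNA 1 cells and 7.31 and 7.06 in shRNA 2 cells, against 8.82 and 7.90 in scramble cells. It had -0.07 with shRNA 1 and -1.17 with shRNA 2 (adjusted p = 0.95 and 0.11, the second 0.013 with the block), and 2 of its other probe sets had -1.61 and -1.44 with shRNA 2, while the dimmest read 2.24 on every array. CHAF1B read 5.15 and 4.38 in shRNA 1 cells and 5.42 and 5.30 in shRNA 2 cells, against 6.85 and 6.0 in scramble cells, with both knockdown groups below both scramble arrays. It had -1.66 ± 0.37 with shRNA 1 (adjusted p = 0.054, blocked 0.0096) and -1.06 ± 0.37 with shRNA 2 (adjusted p = 0.088, blocked 0.014). Its difference between the shRNAs, -0.60, had a 95% interval of -1.55 to 0.36.

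Members with more than 1 probe set allowed a check of the direction. Of the probe sets that were not the brightest of their gene, 28 had a mean of at least 4, and all 28 had the same sign as the brightest one for shRNA 2 minus scramble. Another 20 were dimmer than that. The same count was not made for shRNA 1, where the signs were not always the same. ORC2 had -0.11 with shRNA 1 by its brightest probe set and 0.50 by its other. ORC5 had -0.05 and 0.02, and RECQL4 -0.10 and 0.01.

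Of other genes that work at the fork, a list of 24 tested replication factors had 10 lower and 2 higher with shRNA 2 (13 and 2 with the block) and a median of -0.68. The 41.7% lower compares with 14.4% lower and 16.7% higher of all tested genes (22.2% and 28.4% with the block). TOP2A, the topoisomerase that untangles daughter DNA, read 12.07 and 11.05 in shRNA 1 cells and 8.18 and 7.40 in shRNA 2 cells, against 11.95 and 11.31 in scramble cells, and fell by 3.84 ± 0.46, or 14.3-fold (limma adjusted p = 0.0063). TOPBP1, which helps load CDC45, fell by 1.95 (adjusted p = 0.0081), and DONSON, another factor of helicase assembly, fell by 1.31 (adjusted p = 0.0088). MTBP, a partner of the firing factor treslin, fell by at least 1.13 (adjusted p = 0.0049), since both shRNA 2 arrays stood at its floor. Its shRNA 2 values, 3.63 and 3.63, lay below the filter's mean of 4, which MTBP passed through the other groups. Its p thus rests partly on equal floor values. With shRNA 1 none of the 24 passed the limma test, or 2 lower with the block, where 7.9% of all tested genes were lower (16.8% with the block). Without the filter on dim probe sets the shRNA 2 calls of TOP2A, TOPBP1 and DONSON were lost (0.054 to 0.059). They were also lost for TOP2A without shRNA 2 replicate 2 (0.051), for DONSON without shRNA 2 replicate 1 (0.069) or scramble replicate 1 (0.056), and for TOPBP1 when any 1 of the shRNA 2 arrays or scramble replicate 1 was left out (0.051 to 0.064).

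Replication checkpoint genes had 4 lower of 13 tested with shRNA 2 and 0 higher (6 and 0 with the block), or 30.8% lower against 14.4% of all tested genes (22.2% with the block). The falls were in the kinase WEE1, which holds back CDK (-1.59 on the log2 scale, adjusted p = 0.016), the fork remodeller HLTF (-1.26, adjusted p = 0.0033), and RAD17 and RAD1, which belong to the loader and the ring of the checkpoint clamp (-0.93 and -0.80). Without the filter on dim probe sets WEE1 and RAD1 lost their calls (adjusted p = 0.1 and 0.11), and they lost them when any 1 of the shRNA 2 or scramble arrays was left out (0.059 to 0.13), as RAD17 did without shRNA 2 replicate 1 (0.058). RAD1 had -0.29 with probe sets marked for cross-hybridisation left out.

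Translesion synthesis genes had 0 lower and 1 higher of 10 with shRNA 2 (3 and 1 with the block), against 14.4% lower and 16.7% higher of all tested genes (22.2% and 28.4% with the block), so the counts do not set the list apart. REV3L, the catalytic subunit of polymerase zeta, rose by 0.61 with shRNA 1 (adjusted p = 0.047) and by 1.03 with shRNA 2 (adjusted p = 0.0072). The shRNA 1 call was lost without the filter on dim probe sets (0.12), with the 2 groups alone (0.098) and on leaving out any 1 array (0.098 to 0.19), and the shRNA 2 call without shRNA 2 replicate 1 (0.059). With probe sets marked for cross-hybridisation left out, another probe set of REV3L had 0.02 and 0.06 and neither passed. RAD18, UBE2B and PRIMPOL had -0.84, -0.36 and -0.45 with shRNA 2, which passed with the block (adjusted p = 0.0045, 0.023 and 0.024) and not without it (0.11, 0.063 and 0.11).

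Of 12 ubiquitin ligase genes that control licensing, 2 were lower and 1 higher with shRNA 2 (4 and 1 with the block). The 16.7% lower is near the 14.4% of all tested genes, and 16.7% of those were higher, so the counts do not set the list apart. CDC20, the activator of the anaphase ligase, fell by 2.79 (adjusted p = 0.013) and CUL1 rose by 0.74 (adjusted p = 0.011), but CUL1 had 0.07 as the mean of all its probe sets (adjusted p = 0.82). The deubiquitinase USP37 fell with both shRNAs, by 0.82 with shRNA 1 (adjusted p = 0.034) and by 1.05 with shRNA 2 (adjusted p = 0.0092). Its shRNA 1 call was lost without the filter on dim probe sets (0.12), with the 2 groups alone (0.092) and on leaving out any 1 of the 6 arrays (0.067 to 0.16). With shRNA 2, USP37 and CDC20 lost their calls when any 1 of the shRNA 2 arrays or scramble replicate 1 was left out (0.061 to 0.085), CUL1 without any 1 shRNA 2 or scramble array (0.055 to 0.074), and CDC20 without the filter (0.09). CUL4B, a scaffold of the ligase that DTL joins, had -0.50 with shRNA 2, which passed with the block (adjusted p = 0.0098) and not without it (0.076).

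Of 11 tested E2F and pocket protein genes, 3 were lower and 0 higher with shRNA 2 (6 and 0 with the block), or 27.3% lower against 14.4% of all tested genes (22.2% with the block). The repressive factors E2F7 and E2F8, themselves known E2F targets, fell by 3.01 (adjusted p = 0.01) and 2.40 (adjusted p = 0.032). RB1 read 11.86 and 11.86 in shRNA 1 cells and 9.87 and 10.44 in shRNA 2 cells, against 11.56 and 11.53 in scramble cells. It fell by 1.39 ± 0.20, or 2.62-fold (limma adjusted p = 0.01) with shRNA 2 and had 0.32 with shRNA 1 (adjusted p = 0.37). TFDP2, a dimer partner of E2F, had -0.76 with shRNA 2, which passed with the block (adjusted p = 0.017) and not without it (0.063). Without the filter on dim probe sets E2F7, E2F8 and RB1 lost their calls (0.063 to 0.17), as they did when any 1 scramble array was left out (0.051 to 0.14), and E2F7 and E2F8 also when any 1 shRNA 2 array was left out (0.075 to 0.16). With shRNA 1 RBL1, a relative of RB1, fell by 1.30 (adjusted p = 0.049) and E2F3 rose by 0.57 (adjusted p = 0.04), both named after their values were seen. Both calls were lost without the filter (0.21 and 0.075), with the 2 groups alone (0.13 and 0.091) and on leaving out any 1 array (0.051 to 0.2 for RBL1 and 0.091 to 0.16 for E2F3). E2F1 and E2F4 were too dim to be tested.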

How the data were processed

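Expression arrays of H1299 cells with RBP2 shRNA 1, RBP2 shRNA 2 or scramble shRNA were analysed, 2 arrays per group, as labelled in the sample titles. The deposited values are taken to be on a log2 scale from their range, and per the submitters' processing notes the authors made them with GCRMA, a method that models background from probe sequence and puts the arrays on a common scale before probes are summarised. Its version is not given in the notes. It draws dim probe sets to a floor: the lowest value was 2.24, and 37.8% to 38.7% of an array's values stood at it, so a fold change from a floor is a lower bound. No detection calls were used.

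Of 54675 probe sets, 41091 carried 1 gene symbol in the platform annotation and 1801 several, which were not named. The brightest of a gene's probe sets over the 6 arrays stood for it, and the 10526 genes with a mean of at least 4 were tested. That mean was over all 6 arrays, so a gene dim in 1 group could pass through the others. Groups were compared with limma 3.58.1 in R 4.3.3 (lmFit and eBayes, 1 model over all 6 arrays, 3 residual and 2.09 prior degrees of freedom, two-sided), with Benjamini-Hochberg adjustment over all tested genes and a threshold of 0.05. The procedure was run on simulated data with independent noise on each array. That setting lacks the floor and the deviations shared by arrays of the same replicate number, so it does not give the error rate of the calls here. The number of arrays limits the precision, with a median SE of 0.39 among members and 0.17 among all tested genes.

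The members, gene lists and tests were chosen with earlier results of these data known. Values on every array are given for KDM5A, for members called with shRNA 1, and in each role for up to 4 members with the smallest p with shRNA 2 and the tested member closest to 0 there, and from each pathway list up to 4 genes with the smallest p with shRNA 2 are named; PCNA, DBF4 and GINS4 were added after their values were seen. Across genes, arrays of the same replicate number deviated together from their groups. The deviations correlated at 0.53 between the shRNAs, at 0.75 between shRNA 1 and scramble and at 0.51 between shRNA 2 and scramble. The replicate numbers, taken from the titles, were therefore treated as pairing the samples. The labels state no pairing, so the block was chosen from the same arrays it was then applied to. Blocked calls are thus not independent support for the unblocked ones. Blocked counts stand beside the unblocked ones, with the blocked p of a named gene where the block gives it a call. Alternatives were the block, other filters and probe set choices, centring, quantile normalization, an intensity trend, the 2 groups alone and each array left out. The setting without probe sets marked for cross-hybridisation left out all those with names ending in _s_at or _x_at. Promoter windows come from RefSeq (GRCh38.p14), the table's earliest listed per gene.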

Additional observations from a re-analysis of the deposited data

Results flagged for a closer look

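In 4 of the 54 tested members (7.41%) the shRNA 1 arrays lay on 1 side of both scramble arrays and the shRNA 2 arrays on the other, with a difference between the shRNAs that passed the test, as did 17.7% of all tested genes. The log2 difference of shRNA 1 minus shRNA 2 was 2.17 for RPA1, 1.72 for DBF4, -0.45 for ORC4 and -1.70 for POLD2. RPA1 and DBF4 were above scramble with shRNA 1 and below it with shRNA 2, and ORC4 and POLD2 the other way round.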

How the results depend on the processing

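Counts of members and of all tested genes called in either direction depended on the processing. Between shRNA 1 and scramble, 2 members and 1213 genes were called; with the replicate number as a block 6 and 3117, without the filter on dim probe sets 0 and 311 (5 members at an unadjusted p under 0.05), in a model of the 2 groups alone 0 and 191 (4 members), and as the mean of all probe sets 1 member. Leaving out 1 array gave 0 to 0 members and 0 to 191 genes, with 3 to 8 members at an unadjusted p under 0.05. Between shRNA 2 and scramble, 28 members and 3264 genes became 50 and 5324 with the block, 4 and 1470 without the filter and 14 members without probe sets marked for cross-hybridisation. Leaving out 1 array gave 2 to 29 members and 624 to 2928 genes. Between the shRNAs, 32 members and 4327 genes became 8 and 2477 without the filter and 17 members without probe sets marked for cross-hybridisation, while the block gave 43 and 6071. Leaving out 1 array gave 7 to 36 members and 1874 to 3718 genes. The lowest, 7 members each, came without shRNA 2 replicate 1 and without shRNA 2 replicate 2, and 18 came without shRNA 1 replicate 1. Fewer arrays or more genes tested account for some of these shifts by construction, and other causes were not tested. A mean of at least 6, centring, quantile normalization and an intensity trend kept every count within 1.5 times. Of 3360 values of single genes under these settings, 0 reversed a call, 358 lost one and 102 gained one. CLSPN stood at its floor on shRNA 2 replicate 2, and CDC45 and GINS4 on both shRNA 2 arrays. Whether the floor limited their calls was not tested.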
